A study of Mus musculus with 16 samples.

Results

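Expression of 7 genes of blood coagulation and plasminogen activation was examined in mouse macrophages exposed to tumor-conditioned medium. The members were chosen by name as F3, F10, Thbd, Procr, Plau, Plaur and Serpinb2, and each gene identifier of the deposited table was matched to its symbol. All 7 were found among the 55487 genes of the table, and all 7 were among the 12372 genes tested, which had over 1 CPM (counts scaled to the depth of the sample) in at least 2 samples.

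Coagulation starts when tissue factor on a cell surface binds factor VIIa and activates factor X, which in turn makes thrombin. Thrombomodulin and the protein C receptor turn thrombin towards the activation of protein C, which stops further clotting. In a parallel system, urokinase and its receptor convert plasminogen to plasmin at the cell surface, plasmin dissolves fibrin and matrix, and serpins inhibit the plasminogen activators. Macrophages are known to make tissue factor, urokinase, its receptor and the serpins when activated.

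RNA was sequenced from bone marrow-derived macrophages (BMDMs), macrophages grown in culture from the marrow of wild-type Balb/c mice aged 8 weeks. The tumor medium (CM) was conditioned by 4T1 cells, a mouse mammary tumor line, and therefore stands for the factors of 1 line. The 6 groups were DMEM, which is medium without tumor factors (2 samples), ruxolitinib in DMEM (DMEM + Rux, 3 samples), CM (3 samples), CM with 0.5 μM ruxolitinib labelled 4 h (CM + Rux, 3 samples), CM with ruxolitinib labelled 2 h (CM + Rux 2 h, 2 samples, numbered 2 and 3) and CM with ruxolitinib at the same dose plus IKK-16 at 0.8 μM (CM + Rux + IKK-16, 3 samples). Ruxolitinib blocks the Janus kinases JAK1 and JAK2, and IKK-16 blocks the IκB kinases upstream of NF-κB. The labels give no dose for ruxolitinib in DMEM and no time for the other groups. The methods give 4 h in CM after 2 h without serum but with the inhibitor, and do not say which step the 2 h label refers to. The labels do not say whether numbered samples came from separate mice or cultures, so p-values measure only the spread between these samples.

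Each sample held between 18449388 and 46215853 counted fragments. CPM was scaled by relative log expression (RLE), so 3 fragments were worth between 0.067 and 0.175 CPM. The macrophage label was checked against 8 marker genes, and all 8 had a mean above 1 CPM in every group, with a summed level of 40148 to 57183 CPM per sample. Markers of T and B cells summed to at most 0.583 CPM. Epithelial markers summed to 0 to 0.118 CPM in DMEM and 0.692 to 1.45 CPM in CM, with mean Cdh1 going from 0.0148 to 0.618 CPM and Krt14 and Krt5 at 0 counts in both groups. Neutrophil markers summed to 0.236 to 0.287 CPM and 1.72 to 3.24 CPM, with mean S100a8 going from 0.247 to 1.90 CPM, mean Camp from 0.0148 to 0.326 CPM, and Ly6g and Elane at 0 in both. The 7 platelet markers summed to 7.42 to 8.88 CPM in DMEM and 54.1 to 89.3 CPM in CM, mostly from Pf4, with mean Ppbp going from 0.311 to 3.95 CPM, while the platelet glycoprotein genes Gp1bb and Gp6 were at 0 in every group. The 7 endothelial markers summed to 21.3 to 31.5 CPM in DMEM and 18.6 to 24.5 CPM in CM, but single markers moved in opposite directions, as mean Pecam1 went from 0.397 to 9.79 CPM, with 0.421 CPM in CM + Rux 2 h and 5.69 CPM in CM + Rux, and mean Kdr from 18.4 to 4.89 CPM. Fibroblast markers summed to 22.6 to 29.96 CPM and 26.9 to 30.5 CPM. The part of these other cell types in the results was not tested.

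The start regions of the genes that rose with CM are shown first, because 4 of the 5 genes shared a short sequence there. RefSeq start windows of 300 bases (250 before the start and 50 from it on, assembly GRCm38.p6) were given for 5 members, F3, F10, Procr, Plaur and Serpinb2. None was given for Thbd and Plau, the members not called in CM against DMEM. The motifs therefore could not be compared between members that rose and members that did not. The windows lie on the plus strand at chr3:121723287-121723586 (F3), chr2:155750967-155751266 (Procr), chr7:24462233-24462532 (Plaur), chr1:107511173-107511472 (Serpinb2, the first of its 2 starts) and chr8:13037058-13037357 (F10). Both strands were searched for 6 motifs, named AP-1, STAT, EGR, E-box, TATA box and NF-κB consensus, and capitals mark every match.
F3: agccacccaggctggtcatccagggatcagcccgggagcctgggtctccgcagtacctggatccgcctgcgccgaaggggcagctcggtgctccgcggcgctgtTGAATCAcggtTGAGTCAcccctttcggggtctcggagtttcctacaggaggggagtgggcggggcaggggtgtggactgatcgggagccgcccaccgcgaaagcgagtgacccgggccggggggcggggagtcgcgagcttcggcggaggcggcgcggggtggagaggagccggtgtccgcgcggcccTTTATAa
Procr: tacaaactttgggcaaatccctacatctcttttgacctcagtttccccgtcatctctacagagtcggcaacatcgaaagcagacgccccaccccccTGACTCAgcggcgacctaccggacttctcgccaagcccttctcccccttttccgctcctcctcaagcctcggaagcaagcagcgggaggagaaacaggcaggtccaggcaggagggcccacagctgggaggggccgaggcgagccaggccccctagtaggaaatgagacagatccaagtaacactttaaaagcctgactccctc
Plaur: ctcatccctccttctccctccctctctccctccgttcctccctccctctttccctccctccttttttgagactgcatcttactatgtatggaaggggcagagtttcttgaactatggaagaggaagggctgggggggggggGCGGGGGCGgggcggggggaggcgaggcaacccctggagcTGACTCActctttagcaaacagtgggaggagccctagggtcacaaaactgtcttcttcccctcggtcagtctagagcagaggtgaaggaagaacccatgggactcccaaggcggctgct
Serpinb2: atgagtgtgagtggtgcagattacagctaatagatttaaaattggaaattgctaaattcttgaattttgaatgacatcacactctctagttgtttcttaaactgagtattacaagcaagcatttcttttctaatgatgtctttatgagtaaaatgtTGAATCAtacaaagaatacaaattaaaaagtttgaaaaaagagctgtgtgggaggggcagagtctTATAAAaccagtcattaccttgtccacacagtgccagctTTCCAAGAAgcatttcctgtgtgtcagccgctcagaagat
F10: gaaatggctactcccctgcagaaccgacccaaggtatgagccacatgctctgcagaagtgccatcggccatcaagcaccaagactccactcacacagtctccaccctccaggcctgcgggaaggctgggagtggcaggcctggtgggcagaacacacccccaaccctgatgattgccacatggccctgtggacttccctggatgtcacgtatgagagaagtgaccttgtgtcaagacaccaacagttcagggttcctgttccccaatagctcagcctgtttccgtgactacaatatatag
The AP-1 motif (TGANTCA), the letters read by Fos and Jun family dimers, was present in F3 at -146 and -135 (first base counted from the start site), in Procr at -154, in Plaur at -69 and in Serpinb2 at -94. It was present in 7.81% of all 32851 start windows. F10 held none of the 6 motifs, and the NF-κB consensus, which 8.46% of all windows held, was in none of the members' windows. Serpinb2 also held a match at 11 to the STAT motif (TTCNNNGAA), which 8.30% of all windows held. Plaur held a match at -109 to the EGR motif (GCGNGGGCG), against 5.55% of all windows. The TATA box (TATAAA), in 13.6% of all windows, was found in Serpinb2 at -29 and on the minus strand of F3 at 44. No member held the E-box (CACGTG), which 7.15% of all windows did. None of these matches overlapped another. The positions depend on the start site used. Counted from the second start of Serpinb2, the AP-1, TATA box and STAT matches were at -181, -116 and -77. For Procr, the annotation used for counting begins the gene at 155751117, and the RefSeq start used here is 155751217. A match describes the letters and does not show that a factor binds there.

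Tissue factor and factor X, the genes that drive clotting, were both higher in CM than in DMEM. F3 (ENSMUSG00000028128, chromosome 3, 121723537 to 121735048), which encodes tissue factor, had 0.0887 and 0.286 CPM in DMEM, from only 3 and 7 fragments. It had 3.17, 7.64 and 3.58 CPM in CM, so the groups did not overlap. The log2 fold change of CM against DMEM was 4.77 ± 0.72 (SE), with an adjusted p of 5.7e-05 (edgeR quasi-likelihood test). Without DMEM replicate 1 it was 4.07, and without DMEM replicate 2 it was 5.72, where the 1 DMEM sample left was assumed to vary like the samples of the other groups. F10 (ENSMUSG00000031444, chromosome 8, 13037308 to 13056676), which encodes factor X, the enzyme that makes thrombin, had 3.01 and 4.54 CPM in DMEM and 32.3, 21.8 and 64.2 CPM in CM. Every CM sample was above both DMEM samples, with a log2 fold change of 3.40 ± 0.64 and an adjusted p of 4.0e-04. In bulk RNA, more cells that express a gene and more RNA per cell cannot be told apart.

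Of the receptors of the anticoagulant branch, Procr was called higher in CM and Thbd was not. Procr (ENSMUSG00000027611, chromosome 2, 155751117 to 155755471) encodes the endothelial protein C receptor, which presents protein C for activation. It had 13.5 and 8.72 CPM in DMEM and 161, 293 and 98.8 CPM in CM. The groups lay far apart, with a log2 fold change of 4.04 ± 0.60 and an adjusted p of 5.5e-05. Thbd (ENSMUSG00000074743, chromosome 2, minus strand, 148404466 to 148408188) encodes thrombomodulin, which binds thrombin. It had 7.74 and 8.80 CPM in DMEM and 10.9, 28.1 and 8.76 CPM in CM. CM replicate 2 was high, the lowest CM sample lay below the higher DMEM sample, and the log2 fold change of 0.97 (95% interval -0.41 to 2.34) did not pass (adjusted p = 0.20). Without CM replicate 2 it was 0.25 (adjusted p = 0.75), and without the filter on low counts it was called at 0.97 (adjusted p = 0.046).

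In the plasminogen branch the receptor and an inhibitor rose, and the activator did not pass the test. Plaur (ENSMUSG00000046223, chromosome 7, 24462484 to 24475968), the urokinase receptor, had 18.3 and 20.01 CPM in DMEM and 448, 781 and 444 CPM in CM. Its log2 fold change was 4.87 ± 0.43 (adjusted p = 5.1e-07), a 29.2-fold difference with no overlap. Serpinb2 (ENSMUSG00000062345, chromosome 1, 107511423 to 107535478) encodes plasminogen activator inhibitor 2, which inhibits urokinase and tissue plasminogen activator. It had 0.148 and 0.286 CPM in DMEM, from 5 and 7 fragments, and 8.29, 9.06 and 11.3 CPM in CM. This was the largest log2 fold change of the 7 genes, 5.50 ± 0.35 (adjusted p = 3.1e-08), and its CM samples were close together. Its span overlaps Serpinb10 on the same strand, which had 0 counts in every sample. Plau (ENSMUSG00000021822, chromosome 14, 20836660 to 20843385), urokinase, had 45.6 and 88.2 CPM in DMEM and 41.1, 92.6 and 80.3 CPM in CM. These ranges overlapped, with a log2 fold change of 0.10 (95% interval -0.76 to 0.96, adjusted p = 0.84).

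Of the 7 genes, 5 were therefore called higher in CM and 0 lower, at an adjusted p under 0.05 and a log2 fold change beyond 0.5, against 20.9% higher and 24.1% lower of all genes that passed the filter (45% in either direction). The members' median log2 fold change was 4.04, and that of all genes tested was -0.005. The members, and the other genes of the system listed below, were chosen with earlier results of these data known. Their shares and medians beside those of all genes are therefore description and carry no test. F3 and Serpinb2 were under 1 CPM in every sample without CM. They passed the filter through the groups with CM, which favours a call as higher against DMEM. RLE scaling moved all genes by 0.31 on the log2 scale in this comparison relative to scaling by totals, and moved the samples with both inhibitors by 0.20 relative to DMEM and by -0.11 relative to CM.

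**Figure D1:**
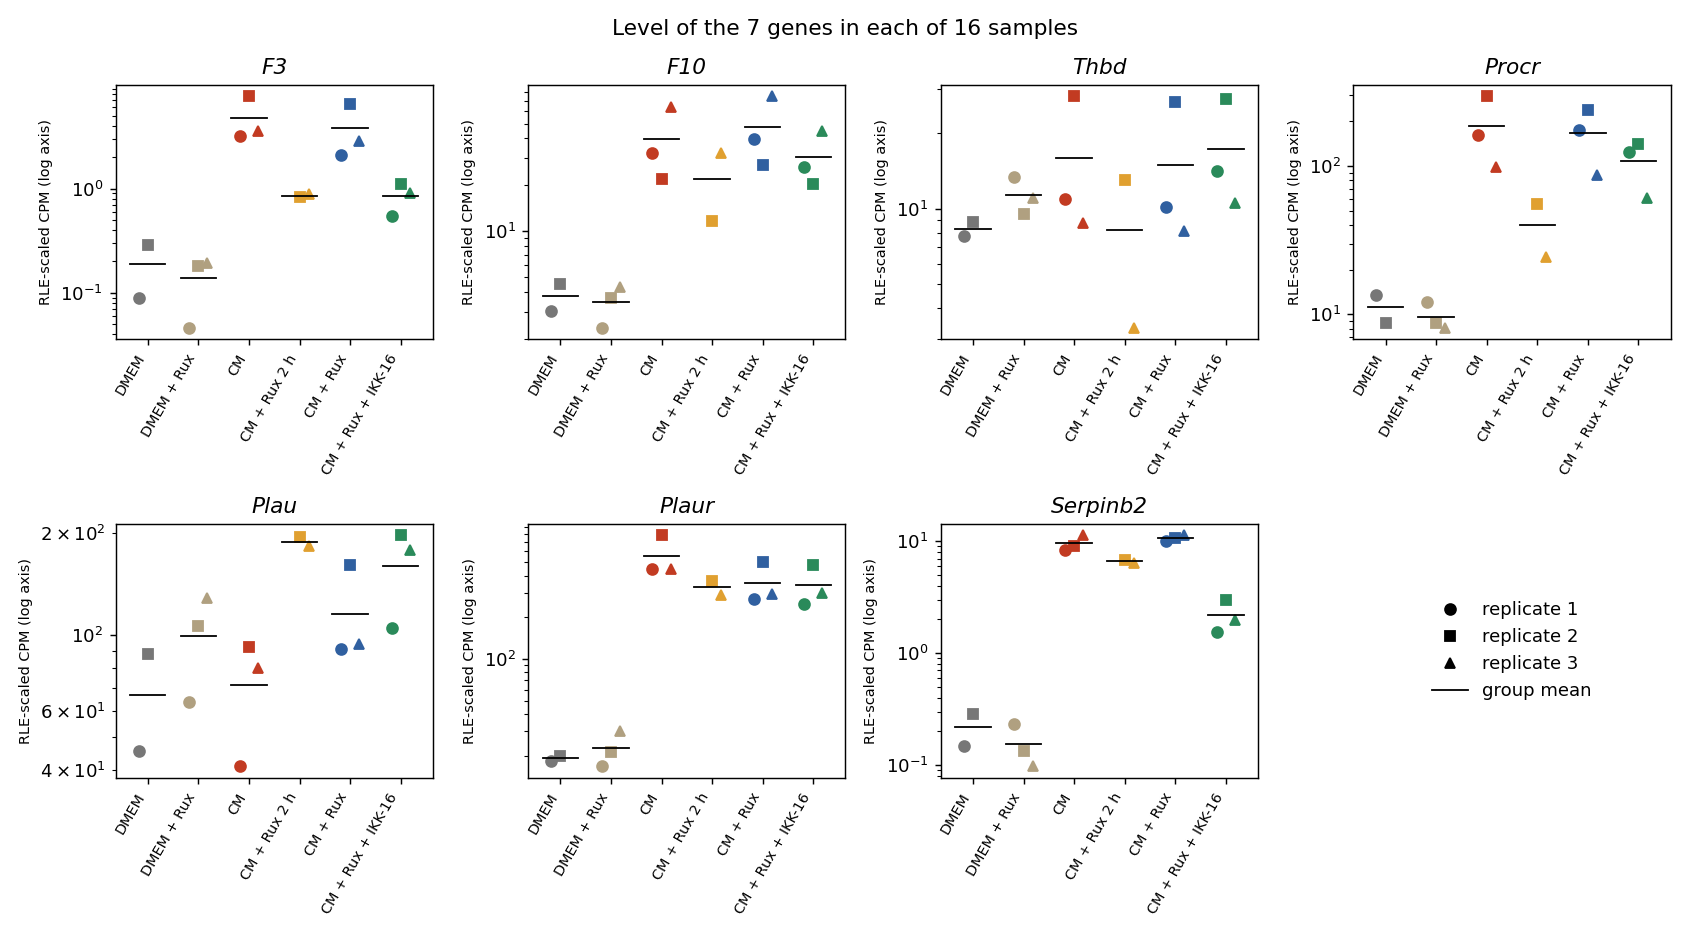
RLE-scaled CPM (log axis, a separate range in each panel) of the 7 genes in each sample of the 6 groups, with marker shape giving the replicate number and a line at the group mean. F3, F10, Procr, Plaur and Serpinb2 lay higher in every CM sample than in both DMEM samples, F3 and Serpinb2 were lower with IKK-16 than with CM + Rux, and both 2 h samples of Plau lay above the CM + Rux samples.

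Levels of different genes were compared per length, as RPKM, the CPM divided by the exon length in kilobases. In DMEM, Plau had the highest mean level with 28.3 ± 12.7 RPKM (SD, n = 2), followed by Plaur with 7.31 ± 0.47 RPKM and Procr with 5.48 ± 1.68 RPKM. In CM, Plaur led with 213 ± 73.9 RPKM (SD, n = 3), followed by Procr with 90.8 ± 48.9 RPKM and Plau with 30.1 ± 11.4 RPKM. F3 had the lowest mean level of the 7 in every group, with 1.90 ± 0.98 RPKM in CM.

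The effect of JAK inhibition was examined next, by comparing CM + Rux with CM. F3 had 2.1, 6.47 and 2.85 CPM, F10 39.9, 26.8 and 74.9 CPM, Thbd 10.1, 26.7 and 8.09 CPM, and Procr 175, 239 and 87.2 CPM in CM + Rux. All of these ranges overlapped those of CM. Serpinb2 had 10.01, 10.7 and 11.3 CPM, and its log2 fold change was 0.16 with an interval of -0.26 to 0.58. None of the 7 genes was called (0 at an unadjusted p under 0.05 and beyond the fold threshold, and 0 by DESeq2), where 3.33% of all genes were (1.2% higher and 2.13% lower). The intervals of the log2 fold change were -1.23 to 0.56 for F3, -0.75 to 1.25 for F10, -1.26 to 1.08 for Thbd and -1.08 to 0.80 for Procr. In pairs of the same replicate number, F3 and Thbd were lower with CM + Rux in 3 of 3, F10 and Serpinb2 were higher in 3 of 3, and Procr went both ways. The differences in log2(CPM + 0.5) were small for Thbd (-0.10, -0.07 and -0.11) and Serpinb2 (0.26, 0.23 and 0.002). The share of all genes with 3 pairs of the same sign was not counted. With the number as a block in edgeR, the intervals were -0.77 to 0.07 for F3, -0.13 to 0.67 for F10, -0.79 to 0.59 for Thbd, -0.60 to 0.32 for Procr and -0.16 to 0.50 for Serpinb2.

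Urokinase and its receptor moved in opposite directions when samples of the same number were paired. Plau had 91.1, 161 and 94.6 CPM in CM + Rux, against 41.1, 92.6 and 80.3 CPM in CM, and was higher in CM + Rux in 3 of 3 pairs of the same number. Plaur had 269, 505 and 294 CPM in CM + Rux, against 448, 781 and 444 CPM in CM, and was lower in 3 of 3 pairs. Without pairing, the ranges overlapped, with a log2 fold change of 0.69 for Plau (adjusted p = 0.39) and -0.65 for Plaur (adjusted p = 0.33, or 0.040 without the filter on low counts). When edgeR was given the replicate number as a block, Plau was 0.75 higher (adjusted p = 0.0049) and Plaur fell by 0.65 on the log2 scale (adjusted p = 0.043), which made 2 of 7 calls, where 6.02% of all genes were called with the block.

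Samples of the same replicate number kept their order in the 3 groups of 3 samples with CM for F3, F10, Thbd, Procr and Plau. The share of all genes that kept an order was not counted. In CM, CM + Rux and CM + Rux + IKK-16 alike, replicate 3 had the highest level of F10 and replicate 2 the lowest. The reverse held for Thbd and Procr, where replicate 2 was the highest and replicate 3 the lowest in all 3 groups. For Thbd, replicate 2 had 28.1, 26.7 and 27.5 CPM in these groups, and replicate 3 had 8.76, 8.09 and 10.5 CPM. For F3 and Plau, replicate 2 was the highest and replicate 1 the lowest in all 3 groups. The 2 samples of CM + Rux 2 h had the same order for F10 (11.7 CPM in replicate 2, 32.1 CPM in replicate 3), Thbd (13.1 and 3.33 CPM), Procr (55.1 and 24.2 CPM) and Plau (195 and 183 CPM). They did not for F3 (0.829 and 0.876 CPM). The order carried over only in part to the groups without CM. In DMEM, which held only replicates 1 and 2, these kept their order for F3 (0.0887 and 0.2865 CPM), Thbd (7.74 and 8.80 CPM) and Plau (45.6 and 88.2 CPM). They were reversed for F10 (3.01 and 4.54 CPM) and Procr (13.5 and 8.72 CPM). In DMEM + Rux, with 3 replicates, none of these genes kept the full order. The labels do not say what a replicate number stands for.

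**Figure D2:**
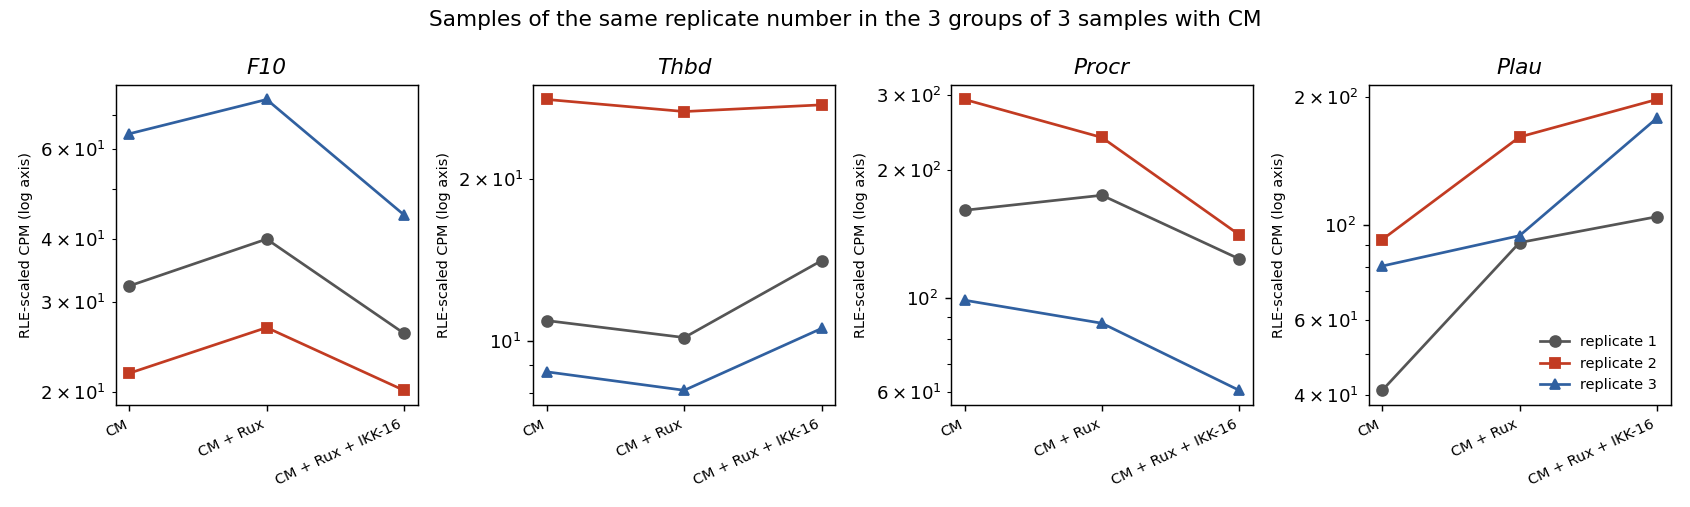
RLE-scaled CPM (log axis) of F10, Thbd, Procr and Plau in CM, CM + Rux and CM + Rux + IKK-16, with a line joining the samples of each replicate number. The lines of F10, Thbd, Procr and Plau kept their order in all 3 groups, and the lines of Plau were higher with CM + Rux than with CM in all 3 numbers.

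Ruxolitinib was also given without tumor factors, and none of the 7 genes was called in DMEM + Rux against DMEM. F3 had 0.0462, 0.179 and 0.194 CPM in DMEM + Rux, F10 2.36, 3.68 and 4.34 CPM, Procr 12.1, 8.80 and 8.13 CPM, and Plaur 16.8, 21.2 and 30.3 CPM. Plau had 63.6, 106 and 129 CPM and Serpinb2 0.231, 0.134 and 0.0971 CPM. All of these overlapped the DMEM samples. Thbd had 13.4, 9.53 and 11.01 CPM, all above both DMEM samples, with a log2 fold change of 0.45 (95% interval -0.92 to 1.81). All 7 genes had an adjusted p of 1.0 (0 at an unadjusted p under 0.05 and beyond the fold threshold, and 0 by DESeq2), where 0.97% of all genes were called, all of them lower. The effect of ruxolitinib in CM minus that in DMEM was also called for 0 of the 7 genes (0 unadjusted, 0 by DESeq2, 0.412% of all genes), with the largest difference for Plaur at -0.90 (95% interval -1.92 to 0.11, adjusted p = 0.64).

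When IKK-16 was added to CM and ruxolitinib, tissue factor and plasminogen activator inhibitor 2 fell. F3 had 0.541, 1.10 and 0.903 CPM with IKK-16, from 21, 36 and 31 fragments, below every CM + Rux sample. Its log2 fold change against CM + Rux was -2.19 ± 0.47 (adjusted p = 0.0073). Without CM + Rux replicate 2, the highest sample, the value was -1.54 (adjusted p = 0.039). F3 passed the filter through CM and CM + Rux, where it was high, which favours a call as lower with IKK-16 against either group. Serpinb2 had 1.55, 2.998 and 1.98 CPM, also with no overlap, and a log2 fold change of -2.30 ± 0.21 (adjusted p = 3.2e-05). These were the 2 called members, both lower, where 3.66% of all genes were called lower and 4.07% higher (7.74% in all). The other 5 were not called. F10 had 26.1, 20.2 and 44.5 CPM, with a log2 fold change of -0.63 (adjusted p = 0.41), and Procr had 124, 141 and 60.6 CPM, with -0.62 (adjusted p = 0.38). F10 was lower than CM + Rux in 3 of 3 pairs of the same number, and so was Procr. With the replicate block F10 was called (-0.60, adjusted p = 0.028) and Procr was not (-0.60, adjusted p = 0.051), so that 3 members were called where 10.8% of all genes were. Plaur, at 247, 480 and 300 CPM, had a log2 fold change of -0.06 (95% interval -0.71 to 0.59), and Thbd, at 14.1, 27.5 and 10.5 CPM, had 0.19 (95% interval -0.97 to 1.35). Plau, at 105, 197 and 178 CPM, had 0.47 (95% interval -0.29 to 1.22). Plau and Thbd were higher with IKK-16 in 3 of 3 pairs of the same number. With the block, the log2 fold change of Plau was 0.44 (adjusted p = 0.042), under the fold threshold, and that of Thbd was 0.25 (adjusted p = 0.59).

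The same IKK-16 samples were also set against CM and against DMEM, so these comparisons share samples with those above and are not independent of them. Against CM, F3 (-2.53, adjusted p = 0.0018) and Serpinb2 (-2.14, adjusted p = 1.8e-05) were called lower and Plau (1.16, adjusted p = 0.032) higher, where 6.13% of all genes were called lower and 6.6% higher (12.7% in all). All 3 IKK-16 samples of Plau lay above all 3 CM samples. Its call was lost without CM replicate 1 (adjusted p = 0.11), CM replicate 3 (0.056), IKK-16 replicate 2 (0.088) or IKK-16 replicate 3 (0.087). The other values against CM were -0.77 for Procr (adjusted p = 0.23), -0.70 for Plaur (0.11), -0.38 for F10 (0.60) and 0.10 for Thbd (0.91). With the replicate block 5 members were called, where 15.6% of all genes were, with the addition of Procr (-0.74, adjusted p = 0.016) and Plaur (-0.71, adjusted p = 0.012). Plaur was also called, at -1.03, without IKK-16 replicate 2 (adjusted p = 0.033), and without the filter on low counts Procr (adjusted p = 0.047) and Plaur (0.0076) were called.

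Against DMEM, the samples with both inhibitors had higher levels of 6 of the 7 genes, where 16.1% of all genes were called higher and 17.2% lower (33.3% in all). These were the 5 genes called higher in CM and Plau, which was not called in CM against DMEM (0.10, adjusted p = 0.84). The log2 fold changes were 2.24 for F3 (adjusted p = 0.030), 3.02 for F10 (0.0013), 3.27 for Procr (3.8e-04), 1.26 for Plau (0.020), 4.16 for Plaur (2.7e-06) and 3.36 for Serpinb2 (8.0e-06). Thbd, at 1.07, was not called (adjusted p = 0.18, or 0.031 without the filter on low counts), although its 3 samples lay above both DMEM samples. The call of F3 was lost without DMEM replicate 1 (1.54, adjusted p = 0.23), IKK-16 replicate 2 (adjusted p = 0.076) or IKK-16 replicate 3 (0.056), and its value was 3.19 without DMEM replicate 2. The call of Plau was lost without DMEM replicate 1 (adjusted p = 0.18) or IKK-16 replicate 2 (0.060). Without DMEM replicate 1 or without IKK-16 replicate 2, 4 of the 6 calls were left.

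**Figure D3:**
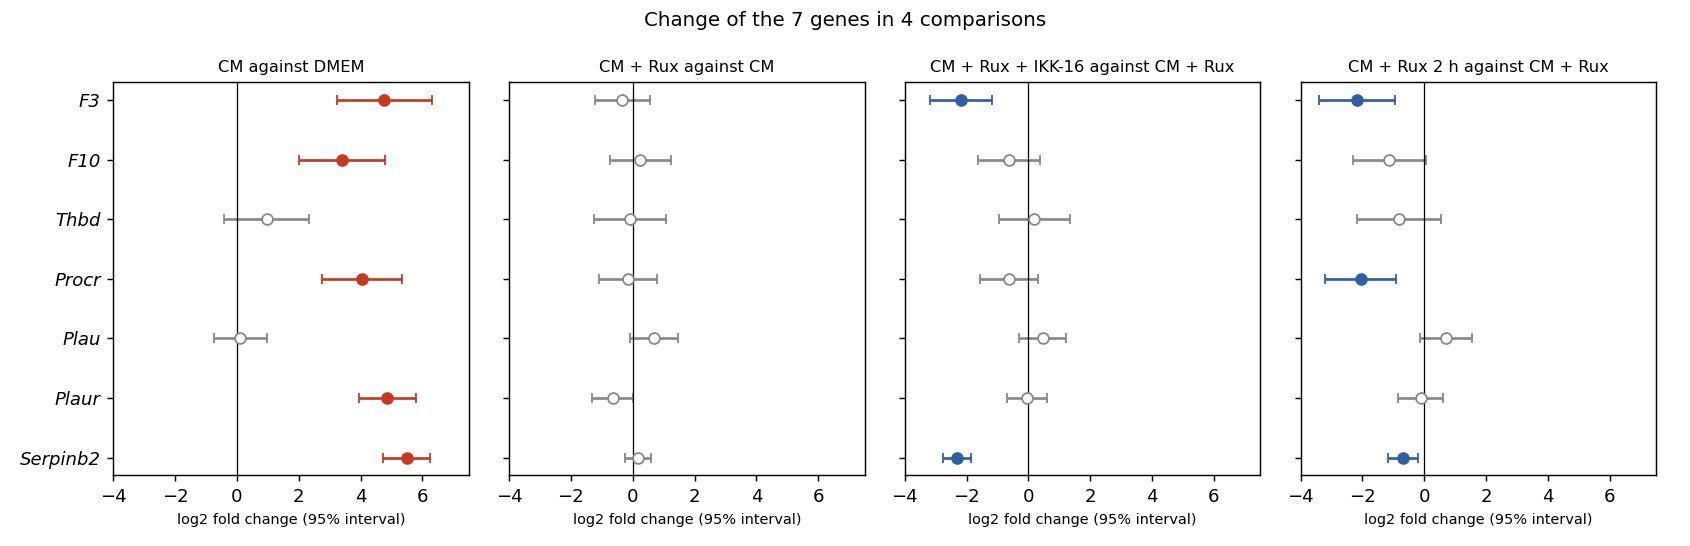
Log2 fold change of the 7 genes (points) with its 95% interval (bars) in 4 comparisons, with filled points for called genes (red higher, blue lower) and open grey points for the others. With CM, 5 genes were called higher, with CM + Rux 0 were called, with IKK-16 F3 and Serpinb2 were called lower, and in the 2 h samples F3, Procr and Serpinb2 were called lower.

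The samples labelled 2 h were compared with CM + Rux, labelled 4 h. F3 had 0.829 and 0.876 CPM at 2 h, from 30 and 15 fragments, below all 4 h samples, and a log2 fold change of -2.18 ± 0.57 (adjusted p = 0.0080). F3 passed the filter through CM and CM + Rux, where it was high, which favours a call as lower at 2 h. Procr had 55.1 and 24.2 CPM, also below all 4 h samples, with -2.06 ± 0.53 (adjusted p = 0.0079). Serpinb2 had 6.79 and 6.43 CPM, with -0.69 ± 0.23 (adjusted p = 0.027). These 3 members were called lower, where 10.7% of all genes were called lower and 12.6% higher (23.3% in all). Plaur had 366 and 290 CPM, within the range of the 4 h samples (log2 fold change -0.12, 95% interval -0.85 to 0.61). Plau had 195 and 183 CPM, above the 91.1 to 161 CPM of the 4 h samples, but the difference of 0.71 did not pass (adjusted p = 0.17). F10 (-1.13, adjusted p = 0.12) and Thbd (-0.82, adjusted p = 0.33) overlapped between the groups and did not pass either. Without the filter on low counts, F10 (adjusted p = 0.0089) and Plau (0.028) were called. Thbd was -2.19 without 2 h replicate 2, -0.22 without 2 h replicate 3 and -0.10 without CM + Rux replicate 2, none of them called. Without 2 h replicate 2, Procr was the 1 call left, at -2.79, as F3 (adjusted p = 0.071) and Serpinb2 (0.098) did not pass. Without 2 h replicate 3, Procr (adjusted p = 0.093) and Serpinb2 (0.13) did not pass and F10 did (-2.01, 0.0499). In both cases 1 sample was left at 2 h and was assumed to vary like those of the other groups. Serpinb2 was also lost without CM + Rux replicate 2 (adjusted p = 0.051) or replicate 3 (0.064), and F3 was -1.53 without CM + Rux replicate 2.

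Other genes of the same system were read from 5 lists of 51 genes, of which 23 passed the filter. In CM against DMEM, 10 were called higher and 2 lower, and their median log2 fold change was 0.39, where 20.9% of all genes were called higher and 24.1% lower and their median was -0.005. F7, F2r, F2rl2 and Plat were under 1 CPM in every sample without CM. They passed the filter through the groups with CM, which favours a call as higher. F8 went from a mean of 0.522 CPM in DMEM to 0.0185 CPM in CM and did not pass the filter. Of the coagulation factors, F7, which tissue factor binds (1.42), and the cofactor F5 (1.05) rose, and Mcfd2, an export receptor for F5, rose by 1.27. Both tested protease-activated receptors, which are receptors for thrombin, were higher, with 4.92 for F2r and 3.67 for F2rl2. Signalling through them was not tested. These values are imprecise, as the DMEM samples had only 0.118 and 0.205 CPM of F2r and 0.148 and 0.2865 CPM of F2rl2. None of the 3 tested anticoagulants, Tfpi, Pros1 and Anxa5, was called. Anxa5 was higher by 0.45 (adjusted p = 5.5e-04), under the fold threshold. Tfpi (-0.42, adjusted p = 0.24) and Pros1 (-0.20, adjusted p = 0.35) had negative values that did not pass. The tissue plasminogen activator Plat (3.57) and the plasminogen-binding proteins Plgrkt (0.96), Anxa2 (1.20), S100a10 (1.20) and Eno1 (1.59) were higher. Plat had only 0.0296 and 0.2865 CPM in the DMEM samples. Eno1 has a near-identical copy and its value is uncertain. Serpinb8 (-0.76) and Serpinb6b (-0.86), serpins placed in the plasminogen list, were lower. Whether these 2 inhibit plasminogen activators was not tested.

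No gene of these lists was called in CM + Rux against CM (0 of 23), where 3.33% of all genes were. With IKK-16 against CM + Rux, 1 of 23 was called, against 7.74% of all genes. This was Plat, which went from 4.46 ± 1.41 CPM to 1.85 ± 0.996 CPM (SD, n = 3 each), with a log2 fold change of -1.29 and an adjusted p of 0.045. In the 2 h samples against CM + Rux, 3 were higher (Vwf, Pros1 and Serpinb8) and 1 was lower (Eno1), all named after their values were seen, against 12.6% higher and 10.7% lower of all genes. The samples with both inhibitors had 2 higher and 1 lower against CM, where 12.7% of all genes were called, and 11 higher and 1 lower against DMEM, where 33.3% were. Plasminogen itself (Plg) and the fibrinogen chains Fga, Fgb and Fgg were among 11 genes with 0 counts in every sample, and prothrombin (F2) and protein C (Proc) were among 8 that reached at most 3 counts in a sample.

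**Figure D4:**
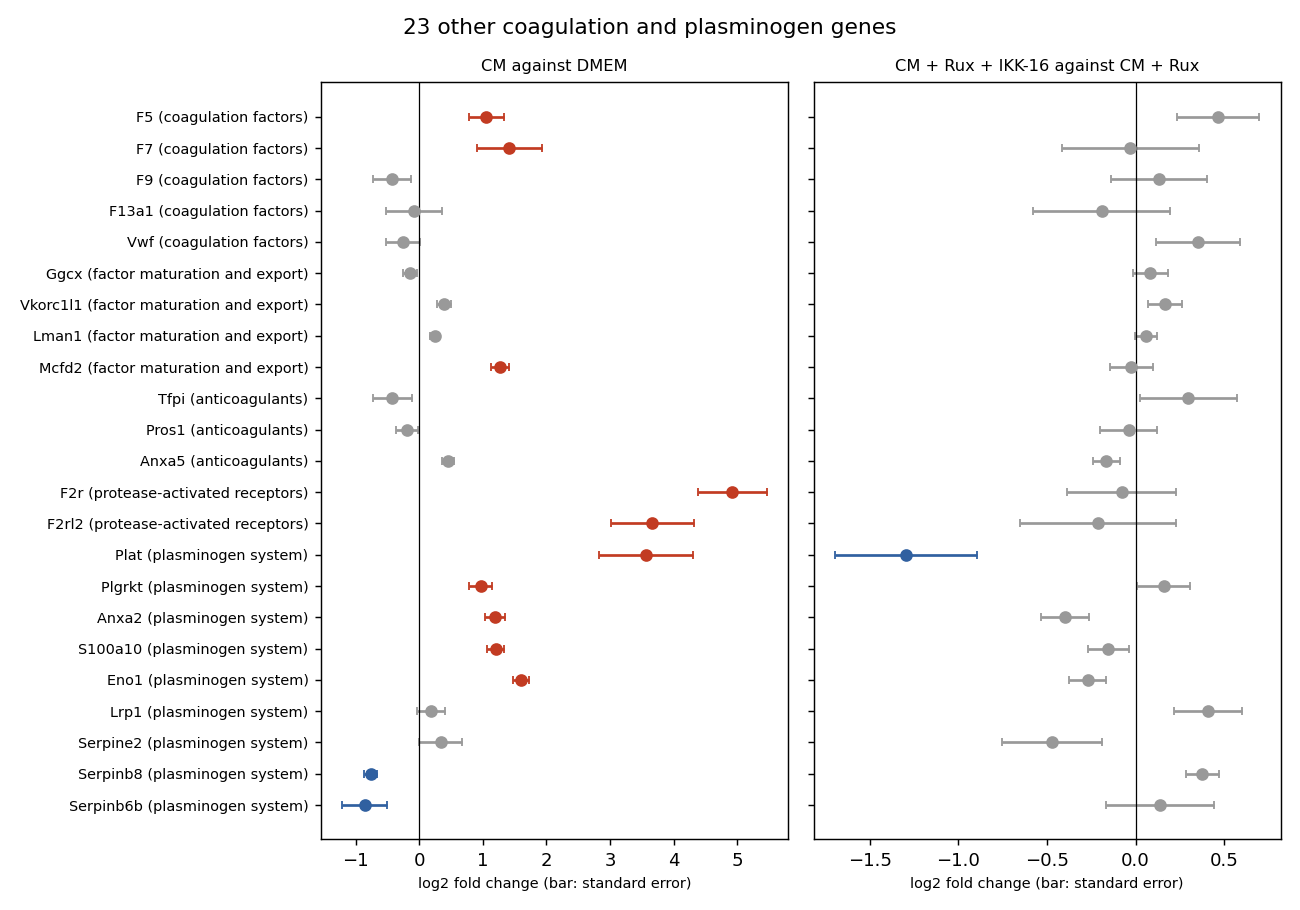
Log2 fold change (points) with its standard error (bars) of the 23 tested genes of the 5 lists, in CM against DMEM (left) and with IKK-16 against CM + Rux (right), red for called higher, blue for called lower and grey for not called. F2r had the largest value on the left, 4.92, from a mean of only 0.161 CPM in DMEM, and Plat was the 1 called gene on the right, at -1.29.

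The genes with the levels most like each member over the 16 samples were found by the root mean square difference of log2 values after centring. For F3 these were the chemokine gene Ccl4 at 0.26, Rap1gap2 at 0.33 and Arid5a at 0.41. The 0.5 CPM added before the log shrinks the changes of genes near the floor, such as F3 and Serpinb2. Mean F3 went from 0.188 CPM in DMEM to 4.80 CPM in CM, and mean Ccl4 from 46.3 to 301 CPM. Their fold changes were therefore less alike than the value of 0.26 implies. For Plaur they were Osm, which encodes oncostatin M, at 0.30, the transglutaminase Tgm2 at 0.32 and the AP-1 family gene Fosl2 at 0.34. The genes nearest to Serpinb2 were the metal ion transporter Slc39a14 at 0.34, Ifitm7 at 0.38 and Gm18445 at 0.41. Procr was nearest to the glucose transporter Slc2a1 at 0.44, the lactate transporter Slc16a3 at 0.45 and Uck2 at 0.45. Met, the receptor of hepatocyte growth factor, was at 0.48 from F10, with Msantd3 at 0.50 and Htra1 at 0.51. Cd24a, Sema4b and Tpm1 were at 0.38 to 0.39 from Plau, and Cdk1, Sc5d and Fam216a at 0.40 to 0.44 from Thbd. The closest 2 members to each other were Procr and Plaur, at 0.82. A smaller value means a more similar pattern, and since each gene's levels come from the same 16 libraries, these values carry no test.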

How the data were processed

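RNA-seq counts of 16 BMDM samples in 6 groups were analysed. The authors trimmed reads with Trimmomatic 0.33, aligned them to GRCm38 with HISAT2 2.1.0 and counted fragments with featureCounts 1.6.2 on the Ensembl annotation. Per the file headers, fragments with both ends mapped, a mapping quality of at least 10 and the reverse strand were counted, so fragments shared by several genes or sites are missing. The deposited values are whole-number counts without scaling. The table also gives the exon length, used for RPKM. Gene positions come from the table and symbols from a GENCODE M21 list, which matched 55141 of 55487 identifiers. The 346 left over took up no more than 0.0459% of any library.

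RLE scaling and the filter (over 1 CPM in 2 or more libraries) followed the study's methods. The quasi-likelihood test of edgeR 4.0.16 (limma 3.58.1, R 4.3.3) was fitted to all 16 samples in 1 model of 6 groups, with Benjamini-Hochberg adjustment over 12372 genes. Intervals are 95%. It was tested on simulated data first. Alternatives were TMM scaling, no filter, DESeq2 1.42.0, the replicate number as a block, no fold threshold, and leaving out single samples. Likeness used log2(CPM + 0.5) minus its mean. Python 3.11.15, pandas 2.3.3, numpy 2.4.6 and matplotlib 3.10.9 served the other steps.

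The replicate numbers of the titles were taken to pair samples of CM, CM + Rux and CM + Rux + IKK-16, because the deviations of same-numbered samples from their group means correlated at 0.391 to 0.631 over genes. The pairing comes from this correlation and not from the labels. All 7 members are named in every comparison, called or not, list genes where they were called in CM against DMEM, CM + Rux against CM or CM + Rux + IKK-16 against CM + Rux, and for each member the 3 genes most like it. List genes not named are in the counts, and 1 gene was left out of the lists and is not reported here. The members and lists were chosen with earlier results of these data known.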

Additional observations from a re-analysis of the deposited data

How the results depend on the processing

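Across 567 alternatives of 56 gene values, 488 kept their direction and their side of the threshold, 15 lost a call, 17 gained one and 47 changed sign. None of the 19 called values changed sign, and 13 of them held under every alternative. The cause of the changes was not tested.

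Without the filter, 1 member was called in CM + Rux against CM, 5 in CM + Rux + IKK-16 against CM and 5 in the 2 h comparison. With the replicate block the first 2 of these gave 2 and 5. Leaving out a sample gave 1 to 3 in the 2 h comparison. The block changed few calls elsewhere: Thbd was called in CM (1.07, adjusted p = 0.024) and in CM + Rux + IKK-16 (1.22, adjusted p = 0.013) against DMEM, and F10 in the 2 h comparison (-1.27, adjusted p = 4.5e-04), where samples share a number only. With the block, Procr was 0.065 in DMEM + Rux against DMEM and -0.21 for the effect of ruxolitinib in CM minus that in DMEM.

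Over all genes, CM + Rux against CM had 412 calls, 685 without the filter, 745 with the block and 243 to 486 with a sample left out. The effect of ruxolitinib in CM minus that in DMEM had 51 calls, 349 without the filter, 237 by DESeq2, 444 with the block and 17 to 114 with a sample left out. Without the fold threshold, calls went from 957 to 1778 (CM + Rux + IKK-16 against CM + Rux), 1575 to 2857 (against CM), 4122 to 6209 (against DMEM) and 2883 to 4726 (2 h).

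Leaving out single samples turned the sign of values that were not called. In CM against DMEM, Plau ranged from -0.30 to 0.65. In CM + Rux against CM, F3 ranged from -0.99 to 0.19, F10 from -0.24 to 0.80, Thbd from -0.81 to 0.63 and Procr from -0.49 to 0.37. In CM + Rux + IKK-16 against CM + Rux, Thbd ranged from -0.30 to 0.91 and Plaur from -0.38 to 0.28, and against CM, Thbd from -0.39 to 0.82 and F10 from -0.77 to 0.17. In DMEM + Rux against DMEM, F3 ranged from -0.90 to 0.75, F10 from -0.37 to 0.23, Procr from -0.50 to 0.13 and Plaur from -0.0027 to 0.43, and in the 2 h comparison, Plaur from -0.30 to 0.22. For the effect of ruxolitinib in CM minus that in DMEM, F3 ranged from -1.09 to 0.56, F10 from -0.16 to 0.88, Thbd from -1.26 to 0.19, Procr from -0.28 to 0.60 and Plau from -0.44 to 0.52.

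Counts of F3 and Serpinb2 in DMEM and DMEM + Rux were at most 8 fragments a sample, so their folds against DMEM are imprecise. F2r, F2rl2 and Plat had at most 0.2865 CPM in DMEM, so their folds against DMEM are imprecise as well.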
